A study of Mus musculus with 4 samples.

Results

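The interval from 4 h to 8 h of CpG stimulation was described by setting the 8 h array against the 4 h array of RAW264.7 cells. RAW264.7 is an established mouse macrophage cell line. All cultures received 1 µM CpG ODN1826, and cells were harvested at 0, 4, 8 or 16 h. Each of the 4 times had 1 array, so the comparison had 1 array a side, and no unstimulated culture at 4 h or later was analysed here. Time in culture and time under CpG therefore cannot be told apart. The array carried 58809 long noncoding RNA (lncRNA) probes and 39027 mRNA probes, 97836 in all. A probe entered the description where all of its spots were marked well above background by the scanner software on the 4 h array, the 8 h array or both, which left 73062 probes, 41832 for lncRNA and 31230 for mRNA. Intensity on each array was scaled so that its 75th percentile was 500. The step of a probe is its log2 intensity at 8 h minus that at 4 h, and "higher" and "lower" are used for steps past 2-fold. With 1 array a side no p-value could be had, and every fold change describes these 2 arrays and not the spread between cultures.

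CpG DNA is taken up into endosomes, where TLR9 binds it and signals through the adaptor MyD88 to the transcription factors NF-kB and AP-1. In activated macrophages a first wave of genes is switched on directly by these factors, and a later wave depends on proteins made in the first, among them type I interferon acting on promoters that hold the interferon-stimulated response element (ISRE). Feedback inhibitors such as Dusp1, Irak3 and Socs proteins restrain the first wave. lncRNAs lie in between and beside the responding genes, often on their opposite strand. The mRNA probes of this array were not paired with gene names in the sources used here, so cytokine, interferon and macrophage marker mRNAs could not be read directly, and the cell type label was not checked against its markers. lncRNA probes carry transcript identifiers, of which 3126 among the probes described matched 2953 RefSeq genes.

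Promoters of named lncRNA genes were searched for letters bound by the factors above. The table of RefSeq promoters covers 250 bases before and 50 after each start on build GRCm38.p6. It held 13 of 20 lncRNA genes, the 10 with the largest steps per direction among probes matched by accession. Only probes above background on both arrays, past 2-fold at every spot and without outlier marks were ranked. On both strands, GAAANNGAAA stood for the ISRE, GGGNNTTTCC for an NF-kB site and TGANTCA for AP-1, with N for any base. Letters of at least 1 of these were found in 3 of the 13. The first pair below rose in the step and holds ISRE letters, Gm17745 was lower and holds AP-1 letters, and 4930459C07Rik, chosen after its values were seen, is the only lower gene with NF-kB letters. Capitals mark the matched letters. The windows are chr5:77018814-77019113 (minus strand), chr4:149780888-149781187 (minus strand), chr10:93335961-93336260 (plus strand) and chr10:96225957-96226256 (plus strand).
1700112J05Rik: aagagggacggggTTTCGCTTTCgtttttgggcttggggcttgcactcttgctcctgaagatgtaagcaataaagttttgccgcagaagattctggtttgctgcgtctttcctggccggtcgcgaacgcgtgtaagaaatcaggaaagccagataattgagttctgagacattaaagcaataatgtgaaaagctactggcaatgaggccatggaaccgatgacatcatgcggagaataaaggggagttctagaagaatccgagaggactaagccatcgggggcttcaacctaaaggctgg
Gm13073: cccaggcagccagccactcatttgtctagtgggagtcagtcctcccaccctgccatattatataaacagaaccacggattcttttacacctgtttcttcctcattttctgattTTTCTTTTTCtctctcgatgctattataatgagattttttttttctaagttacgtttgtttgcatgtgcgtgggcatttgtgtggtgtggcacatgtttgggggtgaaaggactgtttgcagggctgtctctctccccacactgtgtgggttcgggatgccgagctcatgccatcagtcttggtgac
Gm17745: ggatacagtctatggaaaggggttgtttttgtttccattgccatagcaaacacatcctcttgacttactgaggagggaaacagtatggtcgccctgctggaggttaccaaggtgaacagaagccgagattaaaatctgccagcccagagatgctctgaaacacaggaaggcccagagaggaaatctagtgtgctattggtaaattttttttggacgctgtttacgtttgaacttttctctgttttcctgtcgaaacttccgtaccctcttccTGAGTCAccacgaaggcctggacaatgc
4930459C07Rik: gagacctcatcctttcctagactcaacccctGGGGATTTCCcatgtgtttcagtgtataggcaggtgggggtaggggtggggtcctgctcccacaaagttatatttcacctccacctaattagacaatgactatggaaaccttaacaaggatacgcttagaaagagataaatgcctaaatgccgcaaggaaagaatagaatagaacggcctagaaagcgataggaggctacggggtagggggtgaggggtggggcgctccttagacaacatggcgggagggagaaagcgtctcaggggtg

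The scaled intensity of 1700112J05Rik over the time course (0, 4, 8 and 16 h) ran 10.7, 29.0, 117.9, 174.7. Gm13073 had 18.5, 39.3, 118.8 and 475.5 at the same times. Both were therefore already past 2-fold above 0 h at 4 h and rose again in the step, by 2.03 and 1.59 on the log2 scale, and their 16 h intensities were above those at 8 h. After normexp background correction, which shrinks the fold of dim probes, their steps were 0.93 and 0.77, inside 2-fold. 4930459C07Rik had the opposite course: it rose by 4.08 on the log2 scale from 0 h to 4 h and fell by 1.38 in the step. Its probe was matched through a RIKEN clone, has a single spot and was dim at 0 h, at 15.1. Among lncRNA genes with a promoter in the table, ISRE letters were present in 5 of 75 higher genes and in 0 of 88 lower genes, beside 3.99% of all 27025 genes and 4.45% of the 2111 described lncRNA genes with a promoter there. NF-kB letters were present in 2 of 75 higher and 1 of 88 lower genes, beside 1.89% of all and 2.42% of the described lncRNA genes. AP-1 letters were present in 12 of 75 higher and 5 of 88 lower genes, beside 8.97% of all and 10.7% of the described lncRNA genes. Of the higher genes, 6 of the 12 with AP-1 letters and 2 of the 5 with ISRE letters had no spot above background at 4 h. These are counts of letters in a window, with no test, and a match is not a bound site.

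The step was small for most probes. The quartiles of the lncRNA steps were -0.27 and 0.32 on the log2 scale, and those of the mRNA steps were -0.25 and 0.29. The median steps were 0.04 and 0.03. The 8 h array had 1854 lncRNA probes (4.43%) higher and 2149 (5.14%) lower. For mRNA, 1196 (3.83%) were higher and 1304 (4.18%) were lower. A step past 4-fold was seen for 278 lncRNA probes upwards and 417 downwards, and for 170 and 173 mRNA probes. More lncRNA probes were thus lower than higher at both limits, while the mRNA probes past 4-fold were nearly even. The higher share of all lncRNA calls was 46.3%, and it was 31.4% when background was corrected by the normexp method, which left 354 higher and 774 lower. It also moved with the filter. With no filter it was 49.1% (2853 higher and 2962 lower), and with both arrays required above background it was 40.1%.

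**Figure D1:**
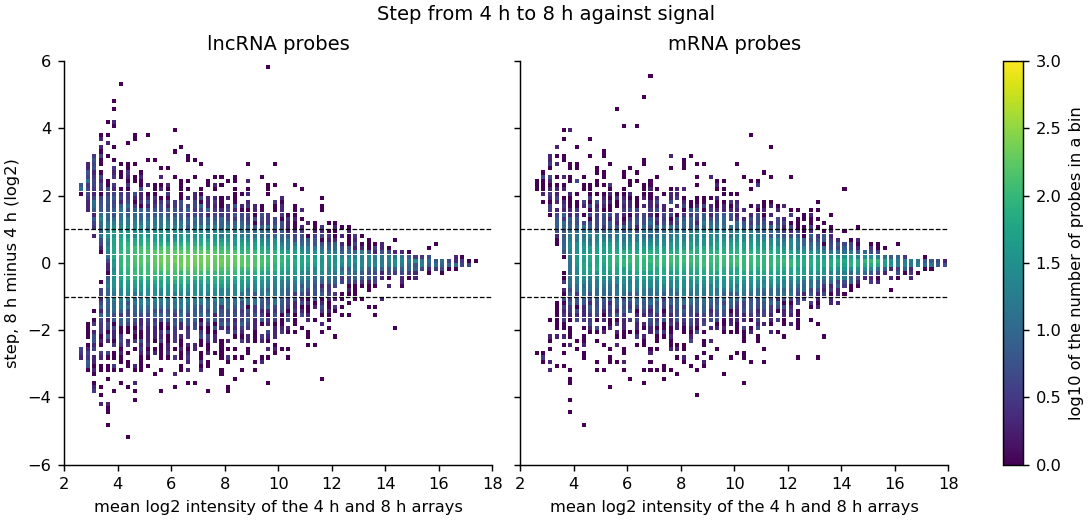
Step from 4 h to 8 h (log2, vertical) against the mean log2 intensity of both arrays before scaling (horizontal) for lncRNA probes (left) and mRNA probes (right). Colour gives the log10 number of probes in each bin and dashed lines mark 2-fold; the spread is widest at the dim end, where 3.63% of lncRNA and 1.45% of mRNA probes under 4 were above background on both arrays.

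The calls differed with signal. Among lncRNA probes above background on both arrays, 1104 were higher and 1652 lower. Of the 2083 lncRNA probes above background at 8 h alone, 750 were higher, and of the 1000 above background at 4 h alone, 496 were lower. For mRNA the corresponding counts were 897 higher and 1133 lower on both arrays, 299 higher of 811 at 8 h alone and 171 lower of 375 at 4 h alone. A probe of the latter kinds passed the filter through the array where it was bright, so these calls carry a direction fixed by the filter. Where no spot was above background on the dim array, only a lower limit of the fold can be given, taken against the lowest intensity marked well above background there. That limit was itself past 2-fold for 219 of 648 such higher lncRNA probes, 204 of 412 lower lncRNA probes, 72 of 235 higher mRNA probes and 49 of 102 lower mRNA probes. Among bright lncRNA probes, those over 10 on the log2 scale, 1.22% were higher and 3.3% lower, and the bright mRNA probes gave 1.76% and 2.39%.

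Spots of the same probe on the same array measure the printing and hybridisation error, not the error between cultures. Of probes with 2 spots, 748 of 1075 higher lncRNA probes (69.6%) and 1009 of 1289 lower ones (78.3%) passed 2-fold at each spot. The same held for 970 of 1196 higher mRNA probes (81.1%) and 1100 of 1304 lower ones (84.4%). As shares of all 2-spot probes, these were 2.77% and 3.74% for lncRNA and 3.11% and 3.52% for mRNA. Opposite signs at the spots were seen for 2 lncRNA probes called higher, 5 called lower and 0 called mRNA probes. A call needs a step past 2-fold, which leaves little room for opposite signs. Among probes within 2-fold, opposite signs were seen for 5041 of 24649 lncRNA and 4660 of 28730 mRNA probes. The median SD between the spots' steps was 0.18 for higher and 0.13 for lower lncRNA probes, and 0.10 and 0.09 for mRNA. The agreement was thus closest for lower mRNA probes and loosest for higher lncRNA probes.

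**Figure D2:**
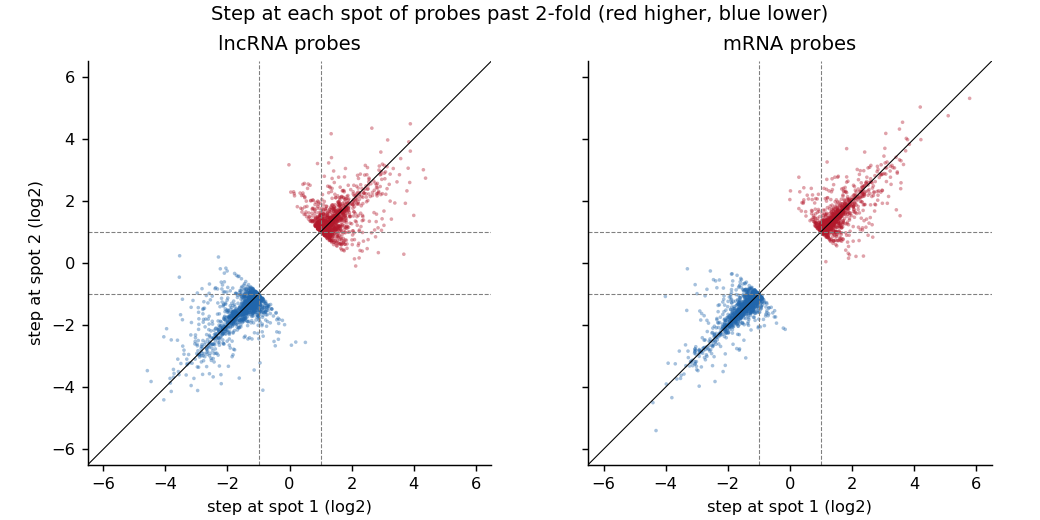
Step at spot 1 (log2, horizontal) against step at spot 2 (vertical) for 2-spot probes past 2-fold, lncRNA left and mRNA right, red for higher and blue for lower. Dashed lines mark 2-fold at each spot and the diagonal marks equal steps; 748 of 1075 higher lncRNA probes lie past 2-fold at both spots.

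The RIKEN clone probe C130040N14 had a step of 5.87, with scaled intensities of 129.3, 100.2, 5860.4 and 135.4 at 0, 4, 8 and 16 h. It stood out at 8 h alone, it has a single spot, and that spot was marked as an outlier at 8 h. Every spot was marked as an outlier on at least 1 of the 2 arrays for 43 lncRNA and 89 mRNA probes of those described, of which 8 lncRNA and 2 mRNA probes were called. Clone B930083L10, also with a single spot, was at 133.4 at 4 h and not above background at 8 h, at least 10.7-fold lower. Among probes above background on both arrays, clone E230031J17, with a single spot, went from 17.5 to 259.4 and clone A630023O21 from 996.5 to 69.0.

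The mRNA probes are known here by probe identifier, and the 2 with the largest steps in each direction are given, among those above background on both arrays, past 2-fold at every spot and with no spot marked as an outlier. A_51_P245796 was at 240.7, 401.0, 5721.2 and 9694.0 at 0, 4, 8 and 16 h, a step of 3.83 with spots at 3.85 and 3.82. A_55_P2158990 was at 3491.0, 781.3, 8307.1 and 16942.1, so it dropped first and then rose above its 0 h level, with a step of 3.41. Downwards, A_55_P1977473 went from 4306.4 through 1463.4 to 95.3 and then 34.8, falling at each interval. A_51_P520936 was at 711.1, 4946.4, 401.6 and 543.6, a peak at 4 h alone.

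The step was next set against the change from 0 h to 4 h. Over the same probes, the first interval had taken 2434 lncRNA probes (5.82%) up and 2004 (4.79%) down, and for mRNA these were 1738 (5.57%) and 1328 (4.25%). Of the lncRNA probes higher at 4 h, 764 (31.4%) were lower in the step and 100 (4.11%) were higher again. Of those lower at 4 h, 481 (24.0%) were higher in the step and 154 (7.68%) fell further. Among mRNA probes higher at 4 h, 441 (25.4%) reversed and 92 (5.29%) continued, and among those lower at 4 h, 272 (20.5%) reversed and 108 (8.13%) continued. Probes within 2-fold at 4 h were split almost evenly in the step, 1273 higher and 1231 lower of 37394 for lncRNA, and 832 and 755 of 28164 for mRNA. Probes within 2-fold at 4 h were 68.7% of the higher lncRNA calls and 89.4% of all lncRNA probes described, and 69.6% and 90.2% for mRNA. After normexp correction 47 lncRNA probes lower at 4 h reversed and 38 continued, with 86 and 35 for mRNA, while of those higher at 4 h 311 lncRNA probes reversed and 15 continued, with 239 and 30 for mRNA. With both arrays required above background, 242 lncRNA probes lower at 4 h and 568 higher at 4 h reversed, with 194 and 369 for mRNA.

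**Figure D3:**
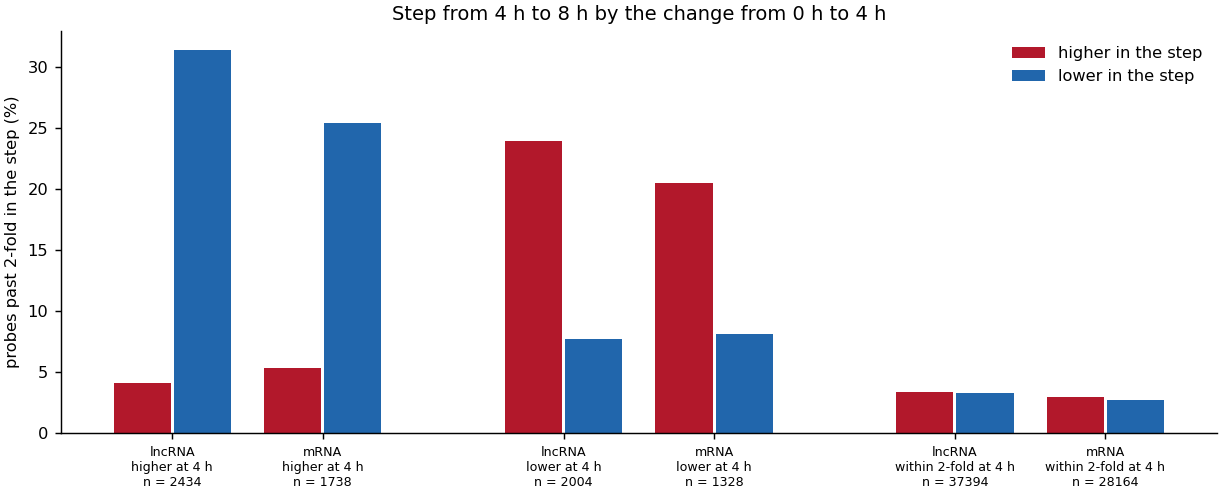
Share of probes (percent, vertical) higher (red) or lower (blue) by over 2-fold in the step, by class and by the change from 0 h to 4 h (horizontal, with the number of probes). Probes higher at 4 h were mostly lower in the step when they moved (31.4% of lncRNA and 25.4% of mRNA probes), probes lower at 4 h mostly higher (24.0% and 20.5%), and probes within 2-fold at 4 h were even; after normexp correction 47 lncRNA probes lower at 4 h were higher in the step and 38 lower.

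The 4 h array enters both changes with opposite sign, so an error of that array alone would also appear as reversal. Part of it can be measured with the spots. When the change from 0 h to 4 h was taken from 1 spot and the step from the other, 28.6% of lncRNA probes higher at 4 h were lower in the step, against 30.1% and 31.0% when the same spot was used for both. For mRNA the crossed shares were 24.0% and 24.7%, against 24.6% and 25.6%. The reversal of probes higher at 4 h was therefore nearly as common with separate spots. For lncRNA probes lower at 4 h the crossed shares were 18.4% and 18.5%, against 24.2% and 24.1% with the same spot, and for mRNA 19.1% and 20.0% against 22.6% and 21.6%. Spots of 1 array share its culture and labelling, and an error common to the 4 h array cannot be told apart from reversal. The filter also bears on both groups. Of probes lower at 4 h and above background at 0 h or 4 h, some were above background on neither the 4 h nor the 8 h array. These, 483 of 2433 lncRNA and 148 of 1458 mRNA probes, are left out, while none of the probes higher at 4 h were. Calls of probes above background at 4 h alone or 8 h alone carry a direction fixed by the filter. Among probes higher at 4 h, a fall of the first kind counts as reversal.

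Reversed probes were picked for opposite changes past 2-fold, so an 8 h level near that of 0 h is largely set by this choice. It cannot be told apart here from an error of the 4 h array. Of the 764 lncRNA probes that rose and then fell, 559 (73.2%) were within 2-fold of 0 h at 8 h, 152 were still higher than at 0 h and 53 were lower. Their median change was 1.85 from 0 h to 4 h and -1.58 in the step. Of the 481 that fell and then rose, 417 (86.7%) were within 2-fold of 0 h. For mRNA the shares were 311 of 441 (70.5%) and 231 of 272 (84.9%). Probes that continued were picked for changes past 2-fold in the same direction at both intervals. Their median changes from 0 h to 8 h were 2.93 and -2.98 for lncRNA and 3.32 and -2.86 for mRNA.

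The level at 16 h was given by a further array. Against 4 h, the 16 h array had 2908 lncRNA probes (6.95%) up and 3869 (9.25%) down, and for mRNA 2674 (8.56%) and 3045 (9.75%). Of probes higher in the step, 66.5% of lncRNA and 78.3% of mRNA probes were also past 2-fold above 4 h at 16 h, and of probes lower in the step 75.4% and 80.8% were past 2-fold below it. These comparisons share the 4 h array. Against 8 h, changes over all probes were fewer: 1045 lncRNA probes (2.50%) higher and 1720 (4.11%) lower, with 762 (2.44%) and 1370 (4.39%) for mRNA. Of the 1854 lncRNA probes higher in the step, 139 moved further up by over 2-fold and 213 went back. Of the 1196 mRNA probes higher in the step, 139 moved further and 59 went back. Of the 2149 lncRNA and 1304 mRNA probes lower in the step, 314 and 305 fell further, and 204 and 74 went back. The 8 h array enters the step and the change from 8 h to 16 h with opposite sign. An error of that array alone would therefore also appear as going back, and cannot be told apart from it here.

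lncRNA probes came from several catalogues. RIKEN clone probes were higher in 5.25% and lower in 6.3% of cases, NONCODE probes in 4.21% and 4.69%, RefSeq probes in 3.86% and 4.69% and Ensembl probes in 3.4% and 4.42%. The lower share exceeded the higher one in these 4 catalogues, but not among the 219 probes whose identifiers begin with "uc.", of which 5.48% were higher and 4.57% lower. Of the 11818 RIKEN probes described, 8113 have a single spot, against 310 of 8281 RefSeq probes. Of the 3126 probes matched to RefSeq genes, 122 (3.90%) were higher and 131 (4.19%) lower. A protein-coding gene overlapped 33.0% of the matched genes' probes, 35.2% of the higher and 45.0% of the lower ones. Of the overlapping pairs with a strand known for both genes, 555 of 619 lay on opposite strands, among them 21 of 21 higher and 33 of 39 lower ones. Of 160 genes with several probes, 28 had a called probe, every probe was called in the same direction in 4, and 0 had probes called in opposite directions.

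The sets of 10 given next were ranked among lncRNA genes matched by accession and above background on both arrays. Beside means the nearest protein-coding gene that does not overlap, at any distance. The 10 lncRNA genes with the largest steps upwards were mostly dim at 4 h and stayed up at 16 h. Gm34048, which overlaps the G protein-coupled receptor gene Gpr149, had scaled intensities of 24.5, 18.9, 134.3 and 211.6 at 0, 4, 8 and 16 h. Its step was 2.83, a 7.09-fold rise, with 2.97 and 2.69 at its spots. A930014E01Rik, which overlaps the fatty acid binding protein gene Fabp12, was at 27.7, 22.2, 98.9 and 121.4, a 4.45-fold rise. Gm39862, which overlaps the gene Ccdc141, was at 60.7, 40.9, 177.9 and 370.4. These 3 were lowest at 4 h and rose above their 0 h level only afterwards. Gm40543, beside the folate enzyme gene Mthfs, was at 17.9, 63.1, 254.7 and 239.2, so it rose at each of the first intervals and then held its level. The transcribed pseudogene Selenok-ps1, a copy of the selenoprotein K gene and the brightest of the 10, was at 509.9, 283.7, 952.1 and 1415.8, and whether RNA of the parent gene also binds this probe was not tested. LOC105247676, Gm15850 beside the kinesin gene Kif21b, and Gm34891 complete the 10 with 1700112J05Rik and Gm13073, at 3.47-, 2.95- and 2.75-fold. Selenok-ps1 and Gm15850 have a single spot each. All 10 were above their 0 h intensity at 8 h, all 10 were past 2-fold above 4 h at 16 h, and 9 of 10 were above their 8 h intensity at 16 h. After normexp background correction 5 of the 10 steps stayed past 2-fold and the 10 ran from 0.53 to 1.65.

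Ranked in the same way, the largest steps downwards began from brighter probes. Prr33, a locus overlapping the leukocyte actin-binding protein gene Lsp1, was at 587.3, 572.2, 90.9 and 52.5, a 6.29-fold fall at its single spot that followed a flat first interval. Particl, an RNA transcribed from the opposite strand at the promoter of Mat2a, the gene of the enzyme that makes S-adenosylmethionine, was at 207.5, 214.4, 39.7 and 30.2. Gm40392, the brightest of the 10, was at 7746.0, 4832.2, 1058.3 and 451.6, and 5430437J10Rik, beside the prostaglandin E2 receptor gene Ptger4, was at 191.1, 362.4, 74.2 and 25.5. These 4 ended at their lowest intensity at 16 h, and Particl and 5430437J10Rik also have a single spot each.

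Another set peaked at 4 h. Gm40158, on the strand opposite to the interferon-induced GTPase gene Gbp3, was at 10.8, 172.6, 28.9 and 27.8. It was not above background at 0 h, and its step was -2.58 with -2.53 and -2.63 at its spots. 9130230L23Rik, beside Chrna9 and with a single spot, was at 33.7, 271.1, 46.9 and 34.0, so its 16 h intensity was close to that of 0 h. Gm40531, opposite to the class I myosin gene Myo1e, was at 676.5, 2393.9, 596.7 and 683.9, and Gm31400, which overlaps the sialyltransferase gene St3gal1, at 80.2, 279.3, 69.1 and 172.0. Each of these 4 was past 2-fold above 0 h at 4 h, and 3 of them were within 2-fold of 0 h at 8 h, Gm40158 being the exception. Gm40783, opposite to the chromatin protein gene Hmga2, dipped at 8 h alone, at 908.4, 1395.3, 284.4 and 1215.8. Gm17745, beside the ETS factor gene Elk3, was at 137.8, 120.8, 31.3 and 43.7. After normexp correction 9 of the 10 stayed past 2-fold, the exception being Gm17745 at -0.86.

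**Figure D4:**
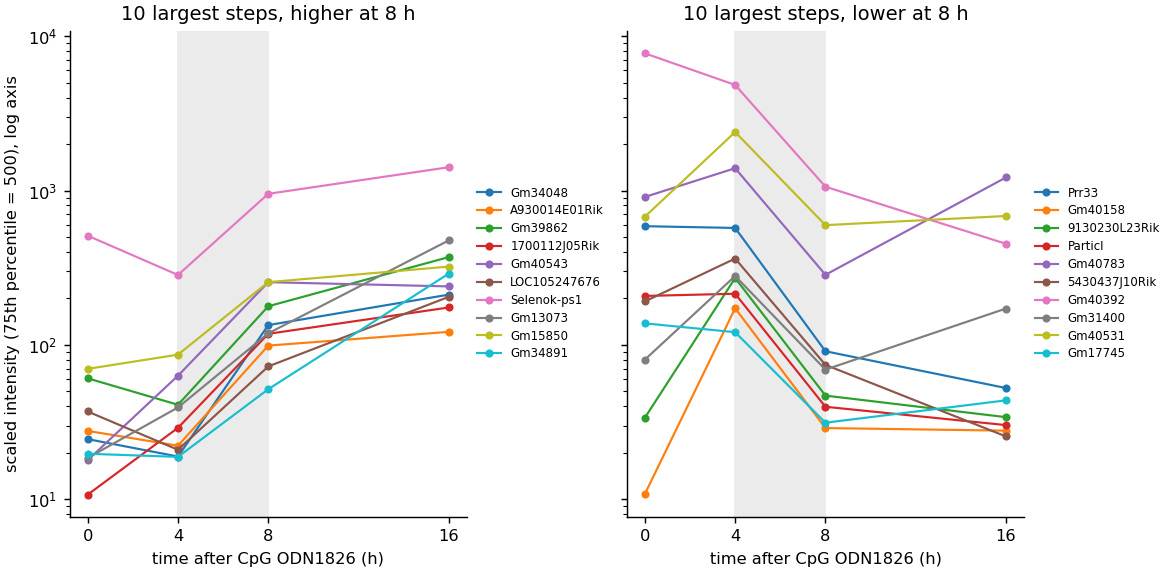
Scaled intensity (vertical, log axis, 75th percentile of each array set to 500) at 0, 4, 8 and 16 h (horizontal), 1 array per time. Lines are the 10 lncRNA genes with the largest step upwards (left) and downwards (right). Only probes matched by RefSeq accession, above background on both arrays, past 2-fold at every spot and without outlier marks were ranked. The interval from 4 h to 8 h is shaded. The upward set lies between 18.8 and 283.7 at 4 h and between 51.6 and 952.1 at 8 h, and the downward set goes from between 120.8 and 4832.2 to between 28.9 and 1058.3.

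For some lncRNA genes only a limit could be given. Gm16350, which overlaps the gene Arhgef10, was not above background at 0 h or 4 h and then reached 46.2 and, by 16 h, 179.8, a step upwards of at least 3.36-fold. Gm20125, beside the transcriptional coregulator gene Cited2 and with a single spot, was above background at 4 h alone, at 68.1. It was at least 5.47-fold lower at 8 h. Gm33481, beside the kinase gene Dyrk2, was likewise seen at 4 h alone, at 40.6, and at least 3.26-fold lower at 8 h. After normexp correction these 3 steps were 0.64, -0.93 and -0.64, inside 2-fold. The limits of the others ranked in this way were smaller. Upwards they were 1.75-fold for Gm42195, 1.66 for Gm32148, 1.47 for Gm32178 and 1.31 for Gm33582. Gm42195 was not above background at 16 h. Downwards they were 2.54 for the probe of Gm34571 with the larger step, 2.18 for Gm42338 and 1.33 for Gm36003.

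Among the matched lncRNA genes the course by first change followed the same split. Of 203 probes higher at 4 h, 57 (28.1%) were lower in the step and 9 (4.43%) higher. Of 100 lower at 4 h, 19 were higher and 3 lower. Gm35019, which lies beside the ribonucleotide reductase gene Rrm2b, a target of p53, was bright and reversed: it was at 7327.6, 1747.6, 3685.8 and 5956.3. Gm41325, overlapping the cohesion factor gene Dscc1, fell by over 2-fold in each of the first intervals, at 1295.2, 511.2, 202.1 and 112.6. Both were chosen after their values were seen.

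Some called lncRNA genes shared their nearest protein-coding gene, at any distance. Of 386 protein-coding genes with at least 2 measured lncRNA genes, 9 had 2 or more called. Over all matched lncRNA probes, 3.90% were higher and 4.19% lower. Whether 9 is more than these shares would give was not tested. The called genes moved up together at 2, down together at 5 and in different directions at 2. At Stau2, where both moved up, neither had a spot above background at 4 h, so the filter fixed their direction. At Hmga2, the clone gene 9230105E05Rik followed the dip of Gm40783, at 136.1, 225.6, 50.3 and 191.6 with a step of -2.16. Its single spot and the 2 spots of Gm40783 thus gave the same course, and both genes overlap Hmga2. At Elk3, Gm32551 was at 263.5, 903.8, 287.7 and 306.9, a peak at 4 h, while its neighbour Gm17745 had no rise at 4 h. At Pced1b, Gm33325 rose from 309.6 to 3103.7 and was then at 1173.0 and 416.5. The other gene called there, Gm41393, went from 23.9 at 4 h to 10.2 at 8 h, at least 1.92-fold lower. Gm41393 had no spot above background at 8 h, so the filter fixed its direction. At Map3k1, a kinase of the JNK pathway, Gm15327 was lower by 1.29 on the log2 scale and Gm15322 higher by 1.76, the latter not above background at 4 h and at least 1.63-fold. These genes were chosen after their values were seen, and probes at 1 locus may read overlapping transcripts.

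lncRNA genes with known roles were taken by list. Of 7 small nucleolar RNA (snoRNA) host genes, which carry snoRNAs in their introns, 0 were higher and 1 was lower, beside 4.43% and 5.14% of all lncRNA probes. The median step was -0.62 against 0.04 over all lncRNA probes, and it was -0.40 after normexp correction. Snhg3 was at 2529.3, 5013.7, 2917.1 and 1567.8, a step of -0.78. Snhg5 had a step of -0.62, Snhg7 of -0.94 and Snhg16 of -0.38, while Snhg8 (-0.10) and Snhg9 (0.01) were level. All but Snhg18 had intensities at 4 h above those at 0 h, by 0.13 to 0.99 on the log2 scale. The lower one, Snhg18, was dim at 4 h (23.8) and not above background at 8 h, at least 1.92-fold lower, with a step of -0.21 after normexp correction.

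Of 13 probes for nuclear and chromatin lncRNAs, 2 were higher and 1 lower, beside 4.43% and 5.14% of all lncRNA probes, and the median step was 0.13. Both higher ones, Neat1 and Tsix, were above background at 8 h but not at 4 h. Neat1, the RNA scaffold of paraspeckles, was at 27.5, 12.7, 36.5 and 281.3. It was not above background at 4 h, was at least 2.65-fold higher at 8 h, with both spots at 1.52, and was brighter again at 16 h. After normexp correction its step was 0.39, and that of Tsix 0.30. Tsix, the antisense RNA of Xist, was above background at 8 h alone at 15.9 and at least 1.16-fold higher. Airn, the imprinted RNA that runs antisense over the Igf2r gene, was at 511.2, 719.4, 208.7 and 758.0. It was thus lower at 8 h alone, by 1.79 on the log2 scale at its single spot, a dip of the same form as those at Hmga2. Firre (-0.79) and Kcnq1ot1 (-0.73) stayed within 2-fold, and 2 probes of Ftx differed, at 0.13 and 0.90. Meg3 (0.09), Lncpint (-0.02) and Hotair (-0.06) hardly moved.

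Of 6 probes for lncRNAs studied in macrophages, 1 was higher and 0 lower, beside 4.43% and 5.14% of all lncRNA probes. Pldi, Meg9 and Bace1os among them were named by the authors from these same arrays. Probes for Mirt2 and AW112010 were not above background at 4 h or 8 h and are left out. The higher one was Ptgs2os, beside the prostaglandin synthase gene Ptgs2, with an intensity of 15.0 at 8 h, then 62.6, at its single spot. It was not above background at 0 h or 4 h, so it was at least 1.09-fold higher in the step, and its step was 0.32 after normexp correction. The 2 probes of Morrbid, an RNA beside the apoptosis gene Bcl2l11 that controls the lifespan of myeloid cells, had steps of 0.50 and -0.57. The brighter one peaked at 4 h, at 974.5, 2392.0, 1610.9 and 888.5. Pldi was at 17.3, 89.8, 116.5 and 162.1, so most of its rise preceded the step. Meg9 (-0.78) and Bace1os (-0.40) were within 2-fold. The 3 microRNA host genes measured, Mir22hg, Mir9-3hg and Mir133a-1hg, had steps between -0.31 and 0.06. Crnde, in no list and chosen after its values were seen, was at 210.6, 118.8, 49.2 and 18.5, lower by 1.27 on the log2 scale in the step and by 0.68 after normexp correction.

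**Figure D5:**
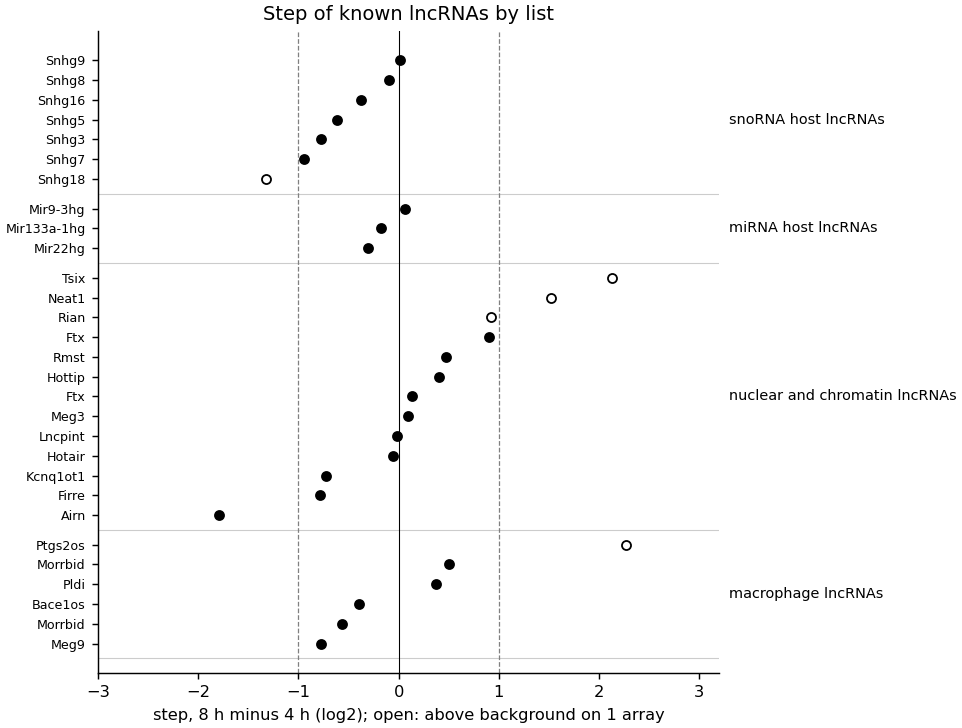
Step from 4 h to 8 h (log2, horizontal) of each probe for lncRNA genes of 4 lists (vertical), with dashed lines at 2-fold. Filled points were above background on both arrays and open points on 1; the 3 points past 2-fold upwards are open, as is the lower Snhg18, and Airn is the only filled point past 2-fold.

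Of the genes in the inflammatory, interferon and metabolic lists only Mx2 was matched to a probe of its own. Given here are lncRNAs that overlap the others or have them as nearest protein-coding gene, at any distance. Of all matched lncRNA probes, 3.90% were higher and 4.19% lower. Beside inflammatory effector genes 6 lncRNA probes were measured, of which Ptgs2os was higher. Gm41236, beside Acod1, the gene of the enzyme that makes itaconate, was at 973.7, 2467.3, 2405.3 and 2703.4. It thus rose before the step and held its level. Beside feedback inhibitors, 1 of 7 was higher: Gm34545, opposite to Irak3, a brake on TLR signalling, went from 40.9 to 90.5, while a second lncRNA there, Gm40781, went from 1815.3 to 1727.0. Beside interferon-response genes 1 of 5 was lower, Gm40158 at Gbp3. The transcribed pseudogene form of Mx2, an interferon-induced GTPase, was measured itself and was at 75.8, 505.1, 131.7 and 131.4, a step of -1.94. Both interferon-associated transcripts thus peaked at 4 h, whereas Gm31417 beside Ifit2 had a step of 0.88 and Gm30290 beside Cmpk2 of 0.39.

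Beside stress genes 1 of 5 was higher, the clone gene E230016M11Rik opposite to the growth arrest gene Gadd45a, at 741.3, 386.3, 946.9 and 1277.8. Trp53cor1, beside the cell cycle inhibitor gene Cdkn1a and also known as lincRNA-p21, was at 1311.1, 895.2, 1178.9 and 2870.6, with a step of 0.40 and its main rise after 8 h. Gm36390, beside the sterol desaturase gene Sc5d, had a step of -0.97. Of 8 beside glycolysis and hypoxia genes and 2 beside TLR9 and NF-kB signalling genes, 0 passed 2-fold. A neighbour's probe is no measure of the gene it lies beside, and whether these pairs move together was not tested.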

How the data were processed

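Total RNA of RAW264.7 cells was labelled with Cy3 and hybridised to Agilent mouse lncRNA and mRNA arrays, 1 per time. The authors deposited the scanner output of Feature Extraction (version 11.5.1.1 per the file headers, 10.7 in the submitters' processing notes) as linear intensity, background-subtracted by the software, and a value table that they had brought to the log2 scale, whose differences between arrays equal those of log2 intensity up to a constant. From the spots that are no controls, log2 processed intensity was averaged per probe, leaving out spots marked as outliers unless every spot was, and the 75th percentile of each array was subtracted. No spot was saturated (0 on each of 4 arrays). The 4 arrays had 75th percentiles of 439.5 to 530.8, and 70.9% to 73.3% of probes were above background; the number of arrays limits the precision.

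No test was possible with 1 array a side. Named lncRNAs are, per direction, the 10 probes matched by RefSeq accession with the largest step and up to 5 more above background on 1 array. The 10 were above background on both arrays, past 2-fold at every spot and without outlier marks. A probe with 1 spot meets this by that spot alone. Probes matched through a RIKEN clone were not ranked. Measured members of the gene lists are also named. Members and lists were chosen with earlier results of these data known. RefSeq accessions stood on 13019 probes, and 4658 of these could be placed on GRCm38.p6 genes, as could 439 more through their RIKEN clone. The neighbour of a lncRNA gene is the nearest protein-coding gene on its chromosome, with no limit of distance. Alternatives were outlier spots kept, normexp (offset 50, on median spot and background signals; limma 3.58.1 in R 4.3.3), quantile normalization, other centring, other filters, the deposited values, scanner error and agreement of spots. The functions were tested on simulated data (Python 3.11.15, pandas 2.3.3). The lncRNAs beside cholesterol metabolism genes are not reported here in full.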

Additional observations from a re-analysis of the deposited data

How the results depend on the processing

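With 1 array a side, no result had a replicate. No paired analysis was possible because each time had 1 array and no result came from a test. The 12 counts were recomputed under 11 alternatives, and under 6 of these every count stayed within 1.5 times its value: outlier spots kept, quantile normalization, a percentile taken from probes that every array detected, the median difference set to 0, 1 spot above background on 1 array, and each spot past 2-fold. Normexp with an offset of 50, which shrinks the fold of dim probes, lowered all 12. It left 354 lncRNA probes higher and 774 lower, and 531 and 699 for mRNA. Under it 311 lncRNA and 239 mRNA probes higher at 4 h reversed and 15 and 30 continued, while 47 and 86 probes lower at 4 h reversed and 38 and 35 continued. Requiring both arrays above background gave 1104 higher lncRNA probes, 55 that continued upwards and 242 that were lower at 4 h and reversed. With no filter there were 2853 lncRNA probes up and 2962 down in the step, and 755 rose after a first fall. lncRNA probes that continued upwards were 55 with the deposited values. They were 60 when the step and the change from 0 h to 4 h had also to exceed the scanner error. The median step of the snoRNA host genes was -0.40 under normexp. Of 37 named called steps, 37 kept their direction and 16 stayed past 2-fold under normexp, and 37 stayed past it under quantile normalization. Absent from the deposited table were 24.9% of lncRNA probes called higher and 12.2% of those called lower, against 4.79% of all those described. Of the 1854 higher lncRNA calls, 750 were above background at 8 h alone.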
